A study of Mus musculus with 8 samples.

Results

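In blood progenitors that carry the AML1/ETO leukaemia fusion, 50 genes of the DNA damage response and of DNA repair were followed. They were taken from the deposited table by gene symbol, and all 50 were found among its 54532 genes. Each passed the filter on low counts, which left 15009 genes for testing. By role they comprise 11 base excision, 4 mismatch, 11 homologous recombination, 7 Fanconi anaemia, 6 end joining, 7 break sensing and checkpoint, and 4 nucleotide excision repair genes.

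RNA sequencing of LSK cells (lineage-negative, Sca-1+ and c-Kit+ bone marrow cells, the fraction that holds the blood stem cells and early progenitors) gave 3 AML1/ETO and 5 control libraries. AML1/ETO joins the transcription factor RUNX1 to the corepressor RUNX1T1 and arises by a translocation in acute myeloid leukaemia; the labels give the genotype of its mice as Runx1-Runx1t1 and that of the controls as WT, all of strain C57BL/6. Mice of both groups received poly(I:C), a synthetic double-stranded RNA that raises interferon and is widely used to switch on Cre recombinase in Mx1-Cre mice, at 5 mg/kg in 4 injections given every other day, and cells were sorted 4 weeks after that. The sources used here give neither the allele's promoter, the Cre line, the animals' ages nor whether each library came from its own animal, and the p-values measure only the spread between these libraries. The data are bulk: fewer cells of a type and less RNA per cell cannot be told apart.

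Repair genes are expressed in all cells, but their demand differs with the cell cycle. Mismatch repair, homologous recombination and the Fanconi anaemia pathway act mostly on DNA that is being or has just been copied, and several of their genes are transcribed in S phase; end joining, base excision and nucleotide excision repair act throughout the cycle. In blood stem cells, which divide rarely, end joining is known as a main route of break repair, and inherited loss of Fanconi genes causes bone marrow failure.

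The libraries held 14693080 to 17527043 counted reads, and the 50 repair genes had a median of 267 to 455 reads per library. The first principal component of log2 levels, with 44% of the variance, separated the groups, and the second, with 14.3%, set the first library of each group apart from the rest. For each library, genes expected at 20 to 50 reads were picked by their mean share in the other libraries of its group. Of these genes, 42.2% to 50.7% had no read in the AML1/ETO libraries and 46% had none in control library 1. In the other 4 control libraries 11% to 26.7% had none. That mean rests on fewer libraries for AML1/ETO than for the controls, so the 2 groups are not on a like basis. Runx1t1, whose sequence the fusion carries, stood at 53.9 to 123 CPM (counts scaled to a common library size) in the AML1/ETO libraries and at 1.58 to 7.68 CPM in the controls. Xist stood at 1972 to 2168 CPM in the AML1/ETO libraries and at 0 to 6.51 CPM in the controls, and the Y-linked Ddx3y at 0 against 216 to 289 CPM, so that the fusion and this sex-linked difference cannot be told apart. Of the 9 LSK markers 8 were higher in AML1/ETO (Kit 913 to 1697 against 378 to 469 CPM), while Ly6a, which encodes the sort marker Sca-1, had only 8.26 to 23.4 CPM in the controls against 221 to 921 CPM. The mast cell list (9 genes, Kit among them) summed to 4172 to 8328 CPM in AML1/ETO against 430 to 541 CPM in the controls. Cma1, Tpsb2 and Mcpt4 had no read in the controls. In AML1/ETO libraries 1 to 3, Cma1 stood at 120, 62.5 and 262 CPM. There Tpsb2 stood at 25.7, 1.75 and 0 CPM and Mcpt4 at 17.6, 0 and 0 CPM. Gzmb of this list went the other way, at 1.97, 0 and 0 CPM against 2.29 to 14.7 CPM in the controls. B cell markers summed to 5.3 to 10.8 against 76.4 to 231 CPM, with 6 of 8 at 0 in every AML1/ETO library. Of these 6, Ms4a1 was also at 0 in every control. The neutrophil list summed to 172 to 1062 against 1156 to 2985 CPM, most of it Mpo (172 to 986 against 883 to 2268 CPM). Mpo did not pass (edgeR adjusted p = 0.0721), while 4 of the 8 tested neutrophil markers were lower. Monocyte markers summed to 39.3 to 62.1 against 173 to 366 CPM. The T and NK cell list summed to 5.22 to 9.31 against 60.9 to 116 CPM. Nkg7 alone held 2.27 to 7.59 against 60.9 to 114 CPM of it, and Cd4, Klrb1c and Trac at most 3.69 CPM in any library. Erythroid markers summed to 13.9 to 71.1 against 11.3 to 70.9 CPM, and megakaryocyte markers to 297 to 735 against 255 to 420 CPM. Cd3d, Cd3e, Cd3g, Cd8a, Ly6g, Ms4a1 and Ppbp had no read in any library. Members of the last 2 lists differed in direction: Itga2b stood at 191 to 638 against 165 to 286 CPM, Vwf at 0 against 24.8 to 50.2 CPM, Gp9 at 0 against 2.34 to 5.79 CPM, Hbb-bt at 2.73 to 61.5 against 0 to 0.117 CPM and Car1 at 0 to 4.5 against 8.31 to 37.6 CPM. The part of these differences in the results below was not tested.

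Across the 50 genes, the shares called in each direction lay near those of all tested genes. With edgeR's quasi-likelihood test and Benjamini-Hochberg adjustment over all 15009 tested genes, 7 of the 50 (14%) were lower in AML1/ETO, against 14.2% of all tested genes, and 5 (10%) were higher, against 11.6%; together 12 were called, where 25.7% of all tested genes were. The 7 that fell were Ung, Msh6, Exo1, Brca1, Bard1, Fanca and Chek1, and the 5 that rose were Neil1, Fancg, Rad50, Atr and Chek2, with folds of 1.74 to 5.5. The other 38 did not pass, 22 of them with an estimate below 0 and 16 above. The median log2 fold change of the 50 was -0.08, beside -0.09 over all tested genes. In 9 of the 50 every AML1/ETO library lay below every control, as in 17.5% of all tested genes, and in 5 every AML1/ETO library lay above, as in 14.1%.

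**Figure D1:**
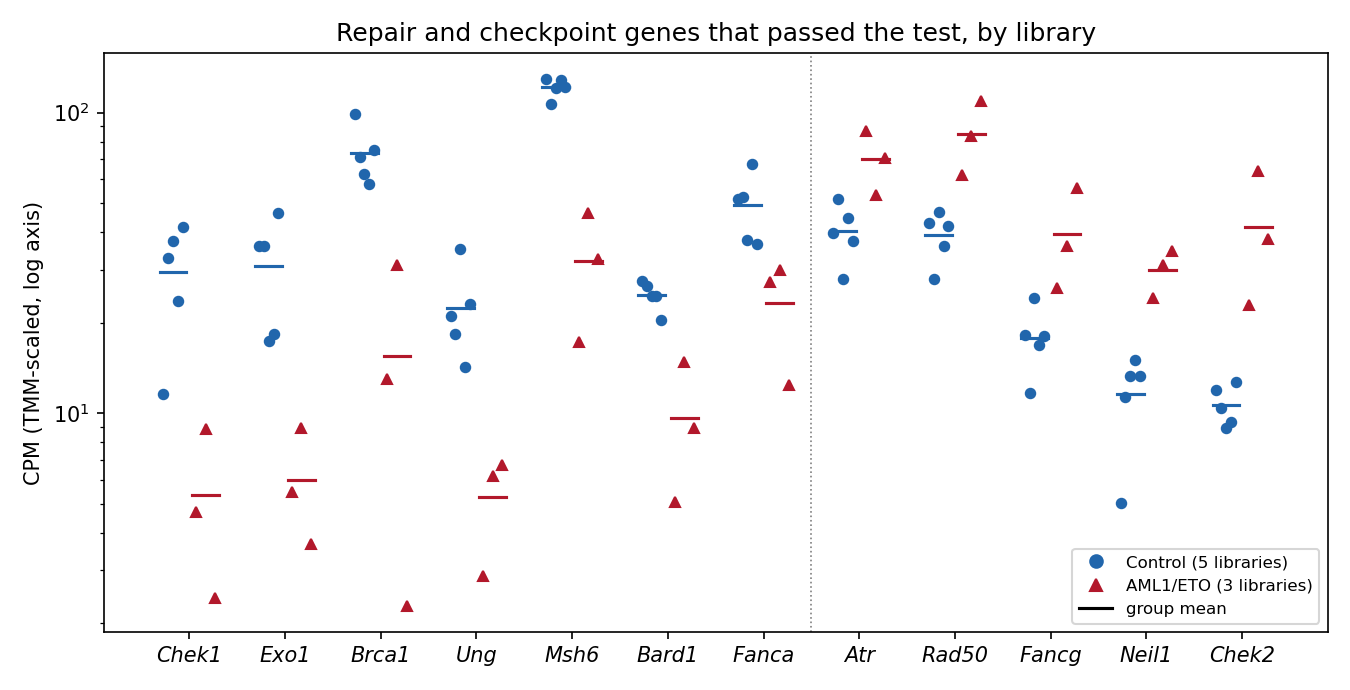
Level of the 12 repair and checkpoint genes that passed the test, in CPM scaled with TMM factors on a log axis, for each of 5 control libraries (circles) and 3 AML1/ETO libraries (triangles), with bars at the group means. The 7 genes left of the dotted line fell and the 5 right of it rose, and in none of the 12 do the groups overlap.

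Of the 50 genes, 12 are known to be transcribed mainly in or just before S phase: Ung, Msh6, Exo1, Brca1, Brca2, Bard1, Rad54l, Blm, Fanca, Fancd2, Fanci and Chek1. All 7 genes that fell belong to these 12 (58.3% of them, where 14.2% of all tested genes were called lower), and none of the 12 rose by edgeR's test, at an unadjusted p under 0.05, by DESeq2 or by limma-voom. Of the 12, 5 were not called, and 1 of these, Fanci, had an estimate above 0 (log2 fold change 0.72, edgeR adjusted p = 0.236). The median log2 fold change of the 12 was -1.22. Of the other 38 genes 5 rose (13.2%, close to the 11.6% of all tested genes called higher) and none fell by edgeR's, DESeq2's or limma-voom's adjusted p, with 1 (Apex1) below an unadjusted edgeR p of 0.05; their median was 0.29, beside -0.09 over all tested genes. The list was drawn up with earlier results of these data known, those on proliferation genes in these libraries among them. Its count is therefore a description and no test of an S phase pattern.

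Summed over the 12 S phase genes, the 5 control libraries held 512, 541, 476, 492 and 540 CPM and the 3 AML1/ETO libraries 258, 264 and 167 CPM. Every AML1/ETO sum was thus well below the lowest control sum. The other 38 genes summed to 1208 to 1308 CPM in the controls and to 1285, 1407 and 1428 CPM in AML1/ETO, ranges that overlap. A list of 18 proliferation genes, such as the marker Mki67 and the replicative helicase subunits Mcm2 to Mcm7, was also lower in AML1/ETO. Of the 18, 16 (88.9%) fell, where 14.2% of all tested genes did, with a median log2 fold change of -1.62 beside -0.09. Plk1 and Rrm2 did not pass, at log2 fold changes of -0.22 and -2.47 (edgeR adjusted p = 0.79 and 0.0742). Pcna, a gene of DNA copying listed here with the further repair genes, did not fall. It stood at 337, 411 and 342 CPM in AML1/ETO against 270 to 425 CPM (log2 fold change 0.06, edgeR adjusted p = 0.838). The 18 genes summed to 799, 1602 and 858 CPM in AML1/ETO against 3087 to 3525 CPM in the controls. The part of this difference in the repair results was not tested.

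**Figure D2:**
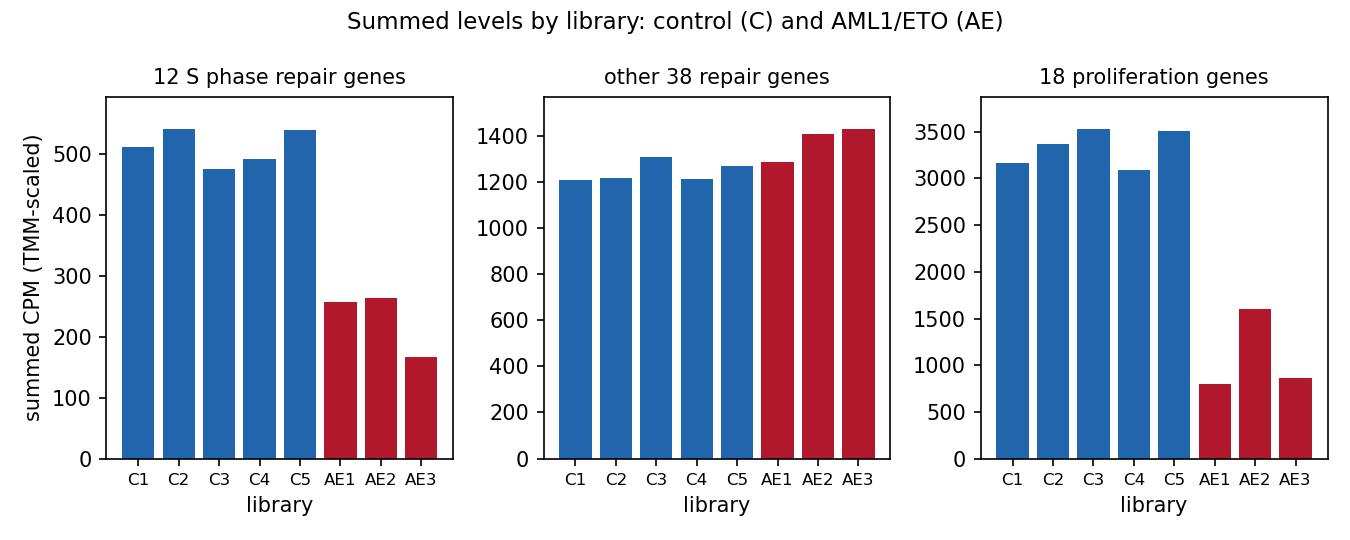
Summed level in CPM (TMM-scaled, each panel with its own axis from 0) of the 12 S phase repair genes, the other 38 repair genes and 18 proliferation genes, in control libraries 1 to 5 (C) and AML1/ETO libraries 1 to 3 (AE). The AML1/ETO bars are 167 to 264 against 476 to 541 CPM in the S phase group, but 1285 to 1428 against 1208 to 1308 CPM in the other 38 genes.

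Promoter sequence is shown for genes of the mismatch and homologous recombination groups, whose called genes all fell, and for Chek2, added after its values were seen because it was the gene with the largest rise. The bases are from RefSeq (GRCm38.p6), on the gene's strand 5′ to 3′, limited to what lies outside annotated exons within 250 bases before RefSeq's start. Distances are counted from that start, which for Bard1 lies inside the GENCODE gene, so that its stretch adjoins the upstream end of the gene coordinates given below. Capitals mark words read by the cell cycle factor E2F (TTTCCCGC, TTTCGCGC, TTTGCCGC or TTTGGCGC, on either strand). They also mark the word of the factor NF-Y (CCAAT, whose other strand reads ATTGG). Msh6 is on the plus strand at chr17:87974800-87975049, Brca1 on the minus strand at chr11:101551956-101552148, Bard1 on the minus strand at chr1:71103147-71103222 and Chek2 on the plus strand at chr5:110839778-110839978.
Msh6: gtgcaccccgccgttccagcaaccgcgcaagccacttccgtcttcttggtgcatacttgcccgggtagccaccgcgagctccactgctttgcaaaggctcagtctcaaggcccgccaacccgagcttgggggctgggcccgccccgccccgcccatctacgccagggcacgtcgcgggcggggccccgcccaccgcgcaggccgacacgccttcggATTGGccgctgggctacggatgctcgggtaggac
Brca1: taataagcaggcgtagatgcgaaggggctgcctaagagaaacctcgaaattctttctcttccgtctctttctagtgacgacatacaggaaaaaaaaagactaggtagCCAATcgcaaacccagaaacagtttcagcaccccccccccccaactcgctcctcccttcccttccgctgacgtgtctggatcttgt
Bard1: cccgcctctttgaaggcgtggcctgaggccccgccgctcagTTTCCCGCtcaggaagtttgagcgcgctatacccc
Chek2: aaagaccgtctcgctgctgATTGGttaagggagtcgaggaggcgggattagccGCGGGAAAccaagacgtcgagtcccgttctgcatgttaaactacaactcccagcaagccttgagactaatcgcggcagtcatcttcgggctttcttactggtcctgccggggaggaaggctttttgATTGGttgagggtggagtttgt
Bard1 holds 1 E2F word, whose first base lies 209 bases before RefSeq's start, and Chek2 holds 1 on its other strand, 152 bases before RefSeq's start; Msh6 and Brca1 hold CCAAT words and none of the 4 E2F words. Of the 42 repair genes with a RefSeq window of 250 bases, 7 (16.7%) held an E2F word, against 3.92% of 10276 tested genes with a window. The word was held by 2 of the 10 S phase genes with a window (20%) and by 5 of the other 32 (15.6%). Among genes that fell 1 of 6 held it, and among genes that rose 2 of 4. CCAAT was in 22 of the 42 windows (52.4%), against 40.2% of the tested genes. The cell cycle (CHR) words TTTGAA or TTCGAA were in 3 (7.14%), against 14.9%, and the RUNX word TGTGGT was in 6 (14.3%), against 13.4%, both also read on either strand. These are matches of letters, with no binding measured.

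Base excision repair replaces single damaged bases: a glycosylase cuts the base out, the endonuclease Apex1 opens the backbone, and Polb and Xrcc1 fill and help seal the gap. Of its 11 genes 1 fell (9.09%, against 14.2% of all tested genes) and 1 rose (9.09%, against 11.6%), both of them glycosylases, with a group median log2 fold change of -0.09. Ung (ENSMUSG00000029591; GRCm38 chromosome 5, 114130386 to 114139323), which removes uracil from DNA and is known to peak in S phase, stood at 2.88, 6.19 and 6.74 CPM in AML1/ETO and at 21.1, 18.3, 35.1, 14.2 and 23.1 CPM in the controls. The highest AML1/ETO library was below the lowest control. Ung fell 4.23-fold (log2 fold change -2.08, SE 0.45, edgeR adjusted p = 0.00549), and limma-voom's adjusted p was 0.0798.

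Neil1 (ENSMUSG00000032298; chromosome 9, 57142800 to 57148305), a glycosylase for oxidised bases, went the other way. It was measured at 24.1, 31 and 34.6 CPM in AML1/ETO and at 5.03, 11.3, 13.3, 15 and 13.3 CPM in the controls, with control library 1 the lowest. The groups did not overlap, and the rise was 2.58-fold (log2 fold change 1.37, SE 0.37, edgeR adjusted p = 0.0172). Leaving out AML1/ETO library 3 raised the adjusted p to 0.0632. The reads of Neil1 per read of Ung in the same library were 8.37, 5.01 and 5.14 in AML1/ETO and 0.239 to 1.05 in the controls, a pair chosen after its values were seen.

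The most highly expressed gene of this group was Parp1, the enzyme that marks single-strand breaks with poly(ADP-ribose). It had 106, 262 and 140 CPM in AML1/ETO and 217, 240, 261, 218 and 240 CPM in the controls. AML1/ETO library 2 lay above all controls and the other two below all of them. The log2 fold change of -0.47 (SE 0.25) did not reach the threshold (adjusted p = 0.19), but leaving out AML1/ETO library 2 made it a lower call, at -0.94 with an adjusted p of 0.0032. Apex1 was estimated at -0.79 on the log2 scale (adjusted p = 0.101) with all 3 AML1/ETO libraries below all controls; 61.7% of its exon bases overlap Pip4p1 on the opposite strand, and since the counting strand is not given, their reads cannot be told apart. The polymerase Polb gave -0.23 (0.785) and the scaffold Xrcc1 0.32 (0.265), both as log2 fold change with its adjusted p. On the same scale the glycosylases Ogg1, Mutyh, Nthl1 and Mpg gave 0.67 (0.319), -0.09 (0.929), -0.60 (0.688) and 0.82 (0.33), and Parp2 gave -0.02 (0.975). Mpg shares 35.7% of its exon bases with Nprl3 on the other strand.

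Mismatch repair corrects copying errors: complexes that hold Msh6 or Msh3 recognise the mismatch, Pms2 belongs to the complex that nicks the new strand, and Exo1 removes it. Of the 4 genes followed here 2 fell (50%, against 14.2% of all tested genes) and none rose (against 11.6%), by edgeR at either the adjusted or the unadjusted p, by DESeq2 or by limma-voom. Msh6 (ENSMUSG00000005370; chromosome 17, 87975062 to 87990892) was at 17.3, 46.4 and 32.6 CPM in AML1/ETO and at 129, 107, 121, 128 and 122 CPM in the controls. The control libraries were close together and every AML1/ETO library was far below them. The fall was 3.77-fold (log2 fold change -1.92, SE 0.28, edgeR adjusted p = 0.000456). Per kilobase of exon Msh6 ranked second of the 50 genes in the controls, at 27.9 CPM per kb, and stood at 7.39 CPM per kb in AML1/ETO.

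Exo1 (ENSMUSG00000039748; chromosome 1, 175880581 to 175913489) stood at 5.45, 8.93 and 3.66 CPM in AML1/ETO, from 72, 143 and 56 reads. In the controls it stood at 36, 36, 17.4, 18.4 and 46.4 CPM. The groups did not overlap although the controls spread widely, and Exo1 fell 5.12-fold (log2 fold change -2.35, SE 0.46, edgeR adjusted p = 0.00293; limma-voom 0.0661). The partner subunit Msh3, which recognises insertion and deletion loops, was estimated at 0.29 on the log2 scale (adjusted p = 0.487), and Pms2 at -0.01 (0.992). The 4 genes summed to 75.6 to 104 CPM in AML1/ETO and to 189 to 223 CPM in the controls. Msh6 alone held 17.3 to 46.4 against 107 to 129 CPM of it.

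Homologous recombination copies the intact sister chromatid into a break. Brca1 and its partner Bard1 prepare the break and, with Palb2, bring in Brca2; Rad51b, Rad51c, Xrcc2 and Xrcc3 assist strand exchange, and Rad54l and the helicase Blm act on the joined strands. Of the 11 genes 2 fell (18.2%, against 14.2% of all tested genes) and none rose, against 11.6% (also none at an unadjusted p under 0.05, by DESeq2 or by limma-voom), and the median log2 fold change was -0.41. Both that fell form one complex. Brca1 (ENSMUSG00000017146; chromosome 11, 101488764 to 101551955) had 13, 31.1 and 2.29 CPM in AML1/ETO and 98.7, 71.1, 62.6, 58 and 75.3 CPM in the controls. All AML1/ETO libraries were below all controls, but library 3, with 35 reads, was far below library 2, with 497. Brca1 fell 4.73-fold (log2 fold change -2.24, SE 0.59, edgeR adjusted p = 0.0162). The fall was 9.65-fold without AML1/ETO library 2 and 7.62-fold by limma-voom, and without the first library of each group the adjusted p was 0.0765.

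Bard1 (ENSMUSG00000026196; chromosome 1, 71027498 to 71103146), the RING partner that stabilises Brca1, was at 5.07, 14.8 and 8.96 CPM in AML1/ETO and at 27.5, 26.4, 24.6, 24.5 and 20.4 CPM in the controls. The groups did not overlap. Bard1 fell 2.56-fold (log2 fold change -1.36, SE 0.38, edgeR adjusted p = 0.0204), and the adjusted p was 0.0553 without AML1/ETO library 3 and 0.0536 without control library 2. Reads of Bard1 per read of Brca1 were 0.39, 0.477 and 3.91 in the AML1/ETO libraries, the last of them where Brca1 was lowest, and 0.27 to 0.421 in the controls, again a pair chosen after its values were seen.

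Blm, the helicase that dissolves joined recombination intermediates, had the highest mean level of this group. It stood at 106, 23.4 and 38.8 CPM in AML1/ETO and at 60.2, 86.9, 55.7, 80 and 87.5 CPM in the controls. AML1/ETO library 1 was the highest of all 8 and the other two the lowest. The log2 fold change of Blm was -0.41 with an SE of 0.40 and did not pass (adjusted p = 0.518); leaving out AML1/ETO library 1 made it a lower call, at -1.26 with an adjusted p of 0.00654. Brca2, which Palb2 brings to the break, was measured at 41, 46.7 and 14.9 CPM against 24.7 to 53 CPM in the controls, with a log2 fold change of -0.14 (adjusted p = 0.838). Of the genes that assist strand exchange, Xrcc2 gave a log2 fold change of -1.30 (adjusted p = 0.208), with every AML1/ETO library below every control and 0.53 CPM in library 1, and Xrcc3 gave 0.41 (0.309). Rad51c gave 0.53 (0.778) and Rad51b -0.72 (0.769), from means of 2.57 and 3.48 CPM in the controls. Palb2 gave -0.08 (0.934), Rad52 -0.11 (0.864) and Rad54l -0.86 (0.154). Rad54l shares 15.4% of its exon bases with Lrrc41 on the other strand. The 11 genes summed to 159 to 229 CPM in AML1/ETO and to 277 to 330 CPM in the controls. Brca1 alone held 2.29 to 31.1 against 58 to 98.7 CPM of it, and 9 of the 11 genes did not pass.

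**Figure D3:**
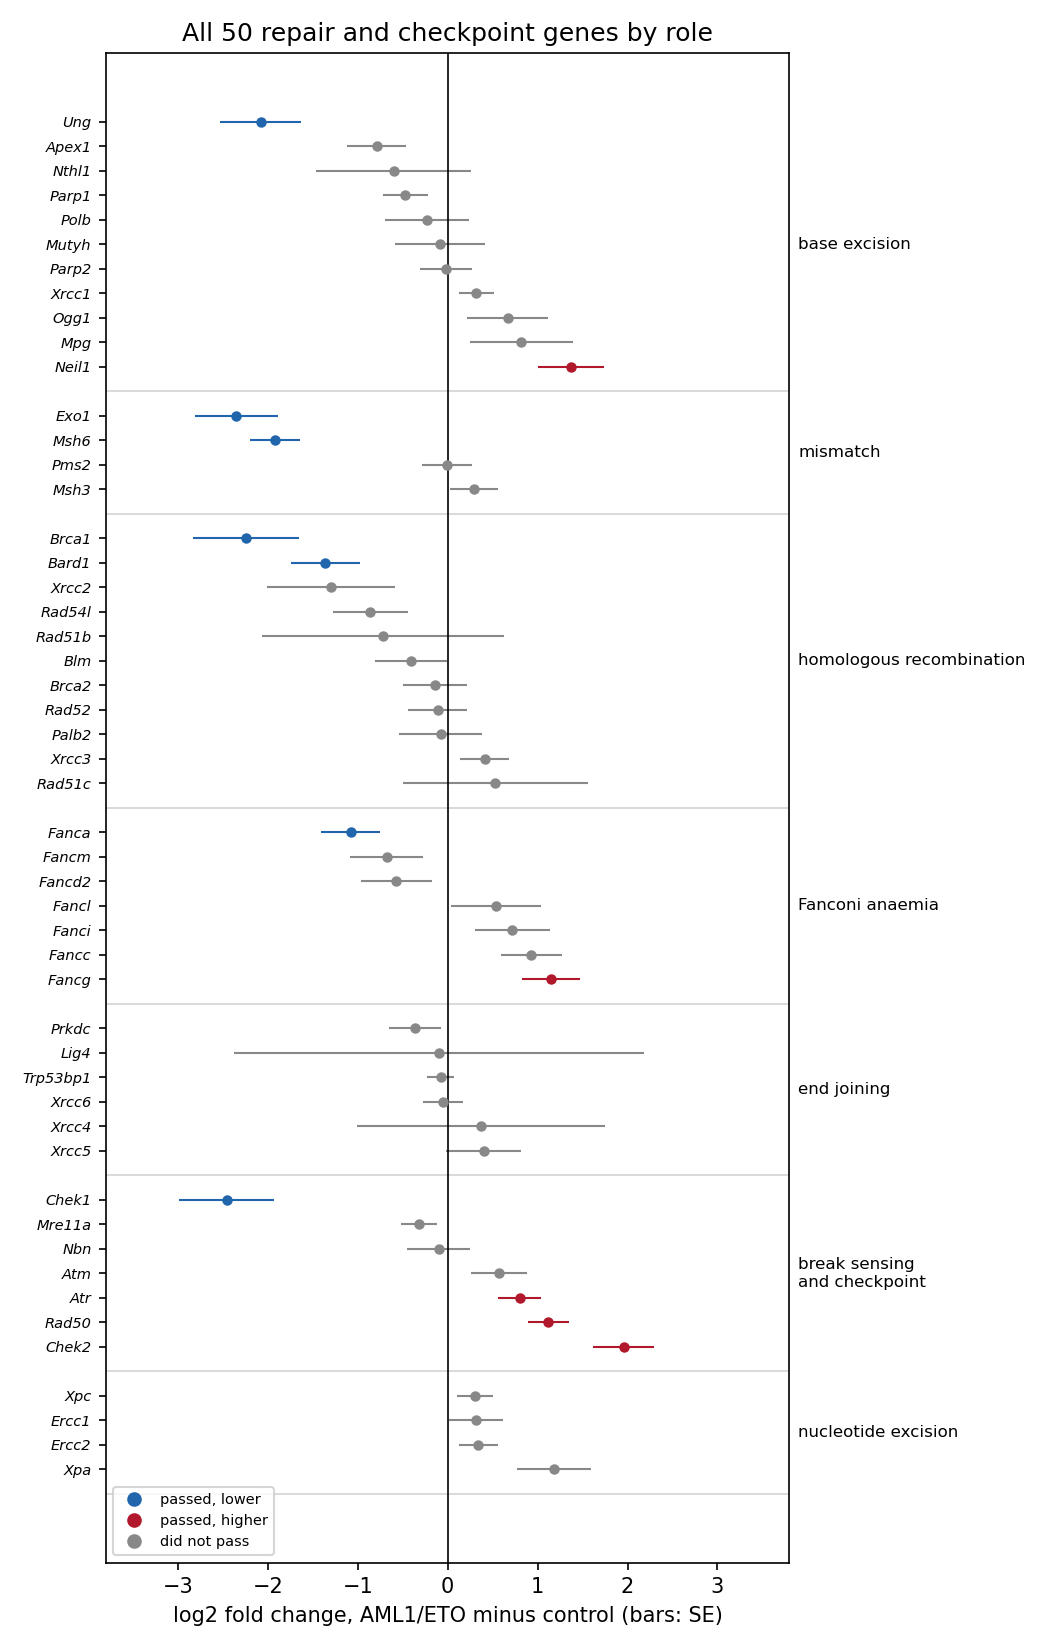
Log2 fold change (AML1/ETO minus control, x axis) with its standard error for each of the 50 genes, arranged by role and ordered by size within a role. Blue genes passed the test and were lower (7), red genes passed and were higher (5) and grey genes did not pass (38). Mismatch and homologous recombination hold only blue calls (50% and 18.2% of their genes, against 14.2% of all tested genes). End joining and nucleotide excision, with 6 and 4 genes, hold no call, where 25.7% of all tested genes were called.

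The Fanconi anaemia pathway unhooks DNA interstrand crosslinks: a core complex that includes Fanca, Fancc, Fancg, Fancl and Fancm attaches ubiquitin to Fancd2 and Fanci. Of the 7 genes 1 fell (14.3%, against 14.2% of all tested genes) and 1 rose (14.3%, against 11.6%), and both encode core subunits. Fanca (ENSMUSG00000032815; chromosome 8, 123268300 to 123318576) had 27.3, 29.9 and 12.4 CPM in AML1/ETO and 51.6, 52.5, 37.8, 67.4 and 36.4 CPM in the controls. AML1/ETO library 3 was the lowest and the groups did not overlap; 10.5% of its exon bases are shared with Zfp276 on the other strand. Fanca fell 2.12-fold (log2 fold change -1.08, SE 0.33, edgeR adjusted p = 0.0307), but the call did not survive leaving out AML1/ETO library 3, with an adjusted p of 0.0856, or control library 1, 2 or 4 (0.0594, 0.0726 and 0.0841).

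Fancg (ENSMUSG00000028453; chromosome 4, 43002343 to 43010506), an adaptor subunit of the core complex that binds Fanca, stood at 26.1, 36 and 56.2 CPM in AML1/ETO and at 18.2, 11.7, 24.2, 16.9 and 18.1 CPM in the controls. The lowest AML1/ETO library was just above the highest control. Fancg rose 2.21-fold (log2 fold change 1.15, SE 0.32, edgeR adjusted p = 0.0197), and leaving out AML1/ETO library 3 raised the adjusted p to 0.13. Fancc, another core subunit, gave a log2 fold change of 0.93 (adjusted p = 0.0668; DESeq2 0.0392) with overlapping groups. The ubiquitin ligase Fancl gave 0.54 (0.489) and the DNA translocase Fancm -0.68 (0.261). The ubiquitin-bearing partners Fancd2 and Fanci lay on opposite sides of 0, at -0.57 (0.335) and 0.72 (0.236), and neither passed. Fancc shares 16.4% of its exon bases with Gm16133 and Fanci 16% with Polg, each on the other strand. The sum over the 7 genes was 156 to 161 CPM in AML1/ETO, within the 140 to 162 CPM of the controls.

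End joining ligates broken ends directly: Xrcc5 and Xrcc6 form the Ku ring on the end, Prkdc is the DNA-dependent kinase recruited by it, Lig4 and Xrcc4 seal the break, and Trp53bp1 protects the end from resection. None of the 6 genes passed in either direction, where 25.7% of all tested genes did, by edgeR at the adjusted or the unadjusted p, by DESeq2 or by limma-voom. Trp53bp1, the most highly expressed of them by CPM, had 95.9, 106 and 103 CPM in AML1/ETO and 101, 116, 111, 117 and 92.5 CPM in the controls. The groups overlapped fully. The log2 fold change of Trp53bp1, -0.08, had the smallest standard error of the 50 genes, 0.15 (adjusted p = 0.784). Trp53bp1 shares 15% of its exon bases with Tubgcp4 on the other strand. Xrcc6 gave -0.05 (0.914), Xrcc5 0.40 (0.555) and Prkdc -0.36 (0.42), as log2 fold change with its adjusted p. For Lig4 and Xrcc4, each with no read in at least 1 library, the standard errors of 2.28 and 1.38 leave the estimates of -0.10 (0.985) and 0.37 (0.892) without information on direction. The 6 genes summed to 233 to 243 CPM in AML1/ETO and to 242 to 271 CPM in the controls.

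Break sensing and checkpoint signalling start with the Mre11a, Rad50 and Nbn complex, which binds broken ends and activates the kinase Atm; Atm acts largely through the kinase Chek2, while Atr, which responds to stalled forks and single-stranded DNA, acts largely through Chek1. Of the 7 genes 3 rose (42.9%, against 11.6% of all tested genes) and 1 fell (14.3%, against 14.2%). Rad50 (ENSMUSG00000020380; chromosome 11, 53649519 to 53707319), the ATPase of the complex, was at 62.1, 83.3 and 109 CPM in AML1/ETO and at 42.8, 28, 46.6, 35.9 and 42 CPM in the controls. All AML1/ETO libraries were above all controls. Rad50 rose 2.17-fold (log2 fold change 1.12, SE 0.23, edgeR adjusted p = 0.00429). Its partners did not pass: on the log2 scale the nuclease Mre11a gave -0.32 (adjusted p = 0.295) and the adaptor Nbn -0.10 (0.88).

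The pair of effector kinases moved in opposite directions. Chek2 (ENSMUSG00000029521; chromosome 5, 110839979 to 110874145), the effector of Atm, had 22.9, 63.7 and 37.9 CPM in AML1/ETO and 11.9, 10.4, 8.91, 9.37 and 12.7 CPM in the controls. The controls were tightly grouped and all AML1/ETO libraries lay above them. Chek2 rose 3.89-fold (log2 fold change 1.96, SE 0.34, edgeR adjusted p = 0.0013), the largest rise among the 50 genes. Chek1 (ENSMUSG00000032113; chromosome 9, 36708482 to 36727065), the effector of Atr and a gene of S phase, had 4.69, 8.87 and 2.42 CPM in AML1/ETO, from 62, 142 and 37 reads, and 11.6, 32.8, 37.3, 23.6 and 41.6 CPM in the controls. Control library 1 was the nearest to the AML1/ETO libraries, and the groups did not overlap. Chek1 fell 5.5-fold (log2 fold change -2.46, SE 0.53, edgeR adjusted p = 0.00546), the largest fall among the 50, and 8.31-fold without AML1/ETO library 2.

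Within a library, the reads of Chek2 per read of Chek1 were 4.89, 7.18 and 15.6 in AML1/ETO and 1.03, 0.318, 0.239, 0.397 and 0.306 in the controls. Every AML1/ETO library thus exceeded every control by this ratio, which does not depend on library scaling; the pair was chosen after its values were seen. Per kilobase of exon, the mean of Chek1 stood above that of Chek2 in the controls (6.34 against 3.55 CPM per kb). In AML1/ETO it stood below (1.15 against 13.8 CPM per kb). Control library 1 differed from the control mean. It held 11.6 CPM of Chek1 over 4.63 kb of exon and 11.9 CPM of Chek2 over 3 kb, so that Chek2 was the higher per kilobase.

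**Figure D4:**
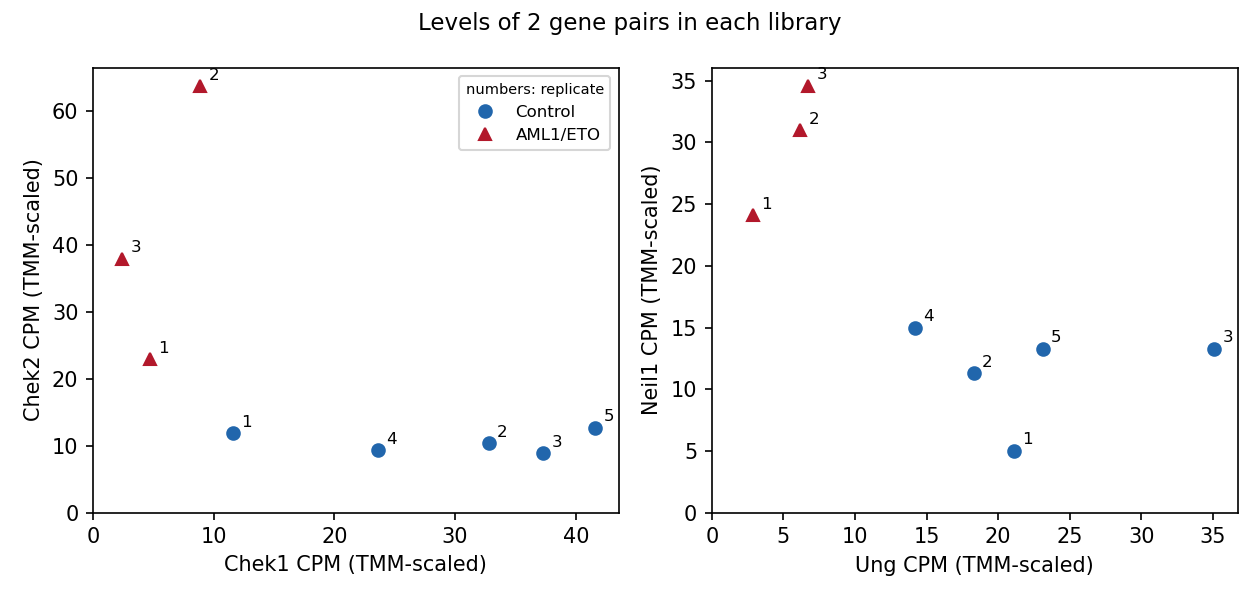
Level of Chek2 against Chek1 (left) and of Neil1 against Ung (right), each in CPM scaled with TMM factors, in the 5 control libraries (circles) and 3 AML1/ETO libraries (triangles), numbered by replicate. In both panels the AML1/ETO libraries lie at the upper left, with 2.42 to 8.87 CPM of Chek1 and 22.9 to 63.7 CPM of Chek2, apart from all controls.

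The upstream kinases gave smaller differences. Atr (ENSMUSG00000032409; chromosome 9, 95857597 to 95951781) stood at 86.8, 53.2 and 70.8 CPM in AML1/ETO and at 39.9, 51.6, 28, 44.7 and 37.3 CPM in the controls. AML1/ETO library 2 was only just above control library 2. Atr rose 1.74-fold (log2 fold change 0.80, SE 0.24, edgeR adjusted p = 0.0279); the adjusted p was 0.107 without AML1/ETO library 1, 0.0691 without library 3, 0.0531 without control library 5 and 0.0581 with library totals in place of TMM factors. Atm, the kinase of double-strand breaks, gave a log2 fold change of 0.57 (adjusted p = 0.215) with overlapping groups. The 7 genes summed to 322 to 344 CPM in AML1/ETO and to 196 to 275 CPM in the controls.

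Nucleotide excision repair cuts out bulky lesions such as those made by ultraviolet light: Xpc finds the lesion, the helicase Ercc2 opens the DNA, Xpa verifies the damage and Ercc1, with Ercc4, cuts one side. None of the 4 genes, against 25.7% of all tested genes, was called by edgeR's adjusted p or by limma-voom, and 1, Xpa, was higher at an unadjusted edgeR p under 0.05 and by DESeq2. Xpc had the highest level, with 82.2, 80 and 78.7 CPM in AML1/ETO and 83.6, 67, 64.3, 46 and 65.6 CPM in the controls. The groups overlapped through control library 1, and the log2 fold change was 0.30 (SE 0.20, adjusted p = 0.313). Xpa was measured at 28.7, 13.4 and 34.3 CPM in AML1/ETO and at 6.14 to 13.9 CPM in the controls, so that AML1/ETO library 2 lay within the controls. Its log2 fold change was 1.18 (SE 0.41, edgeR adjusted p = 0.0515), with a DESeq2 adjusted p of 0.0181 and an edgeR adjusted p of 0.0188 without AML1/ETO library 2. Ercc1 gave 0.31 (0.506) and Ercc2 0.34 (0.3); 24.6% of Ercc2's exon bases overlap Gm26852 on the other strand. The 4 genes summed to 155 to 177 CPM in AML1/ETO, above the 106 to 147 CPM of the controls.

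Of the 12 calls 4, those of Msh6, Chek1, Rad50 and Chek2, were made under all 16 alternative settings tried. The 7 genes Ung, Msh6, Exo1, Brca1, Bard1, Fanca and Chek1 were lower, with no S phase gene called higher, whether levels were scaled by TMM factors, DESeq2 size factors or library totals. Across all settings 5 to 8 S phase genes were called lower and none higher. Outside the S phase list, 1 gene was called lower in 1 setting, Parp1 without AML1/ETO library 2. Without AML1/ETO library 3, 5 of the 50 genes were called lower and 2 higher.

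**Figure D5:**
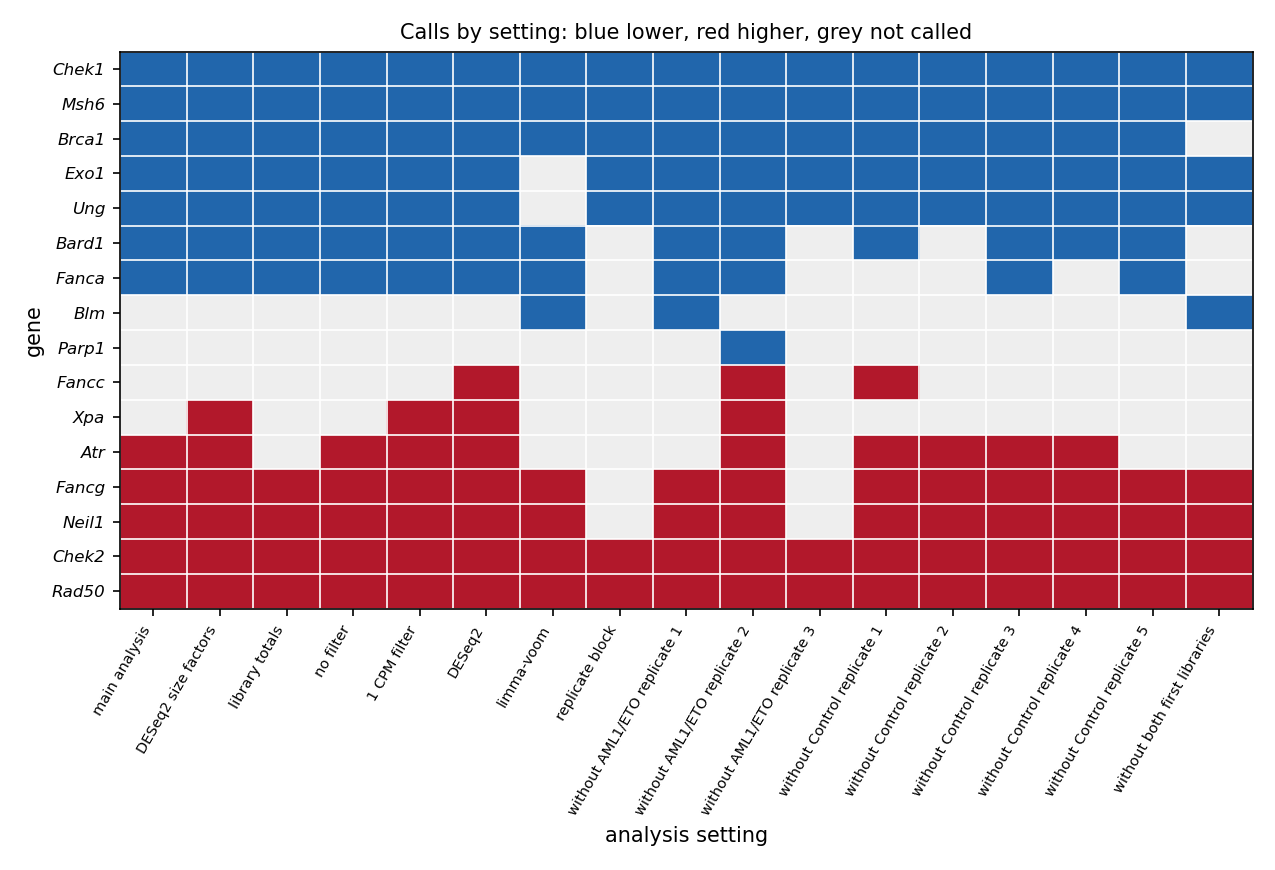
Call of each of the 16 repair genes called in at least 1 analysis setting (x axis; the first is the analysis reported here), blue for lower, red for higher and grey for not called in AML1/ETO. Msh6 and Chek1 are blue and Rad50 and Chek2 red in every column; Atr and Fanca lose their calls most often.

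Beyond the 50, a list of 86 further repair genes, of which 85 were tested, held 16 lower (18.8%, against 14.2% of all tested genes) and 5 higher (5.88%, against 11.6%), with a median log2 fold change of -0.27. The 4 lower genes with the smallest p were Clspn, the adaptor through which Atr activates Chek1, the replicative ligase Lig1, the polymerase subunit Pole and Usp1, which removes ubiquitin from Fancd2. Clspn fell 8.27-fold, from 49.8 to 81.1 CPM in the controls to 4.32, 11.2 and 9.03 CPM in AML1/ETO (edgeR adjusted p = 7.54e-05), so that both Chek1 and its adaptor were lower. Lig1 fell 4.92-fold (0.000216), Pole 4.03-fold (0.000666) and Usp1 2.88-fold (0.00109). Among the higher genes, Mdc1, the scaffold that binds phosphorylated histone at breaks and spreads the Atm signal, rose 2.09-fold (0.00135), from 36.3 to 54.3 CPM to 87.2, 100 and 87.6 CPM. Rad51d, a gene of homologous recombination, rose 2.69-fold (0.00138), the kinase Wee1, which restrains entry into mitosis, 1.94-fold (0.00404), and the helicase Wrn 2.01-fold (0.00549).

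In the controls, the levels per kilobase of exon were highest for Parp1 (44.4 CPM per kb), Msh6 (27.9), Apex1 (18.9), Parp2 (17.9) and Xrcc6 (14.3). The lowest were Lig4 (0.144), Rad51c (0.587), Xrcc4 (0.602) and Rad51b (0.926). All but Lig4, Xrcc4 and Rad51b had a read in every library, 47 of the 50. The biological coefficient of variation that edgeR estimated over all genes was 72.6%.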

How the data were processed

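RNA was measured in LSK cells sorted from mouse bone marrow, in 3 AML1/ETO and 5 control libraries grouped by the labels. The authors deposited 1 table of raw read counts per gene; per the submitters' processing notes, the tools named are HISAT2 2.0.5 and featureCounts 1.5.0-p3 and the build is mm10. The libraries were made with the NEBNext Ultra RNA kit, per the labels' protocols. The annotation release, strand setting and treatment of duplicate and multiply mapped reads are each not given in the sources used here, and reads of genes overlapping on opposite strands cannot be told apart.

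From the deposited counts of 54532 genes, 32927 of them at 0 in every library, edgeR 4.0.16 (R 4.3.3) kept 15009 with filterByExpr, scaled libraries with TMM factors and fitted a quasi-likelihood model of group alone to all 8 libraries; tests are two-sided, with Benjamini-Hochberg adjustment over all tested genes and a threshold of 0.05. Levels are CPM on TMM-scaled libraries, and SE is the standard error of the log2 fold change, derived from the fitted value and its F statistic. The design is not paired by its labels: deviations of AML1/ETO and control libraries with the same number correlated at 0.0388, -0.039 and 0.0271. DESeq2 1.42.0, limma 3.58.1 (voom), other scalings and filters, a replicate block, and leaving out single libraries or the first library of each group were alternatives, 16 in all. The scripts were tested on simulated data with known changes.

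The members and all gene lists were chosen with earlier results of these data known, so counts over a list are descriptions. In each role group, the genes past the threshold and the one with the highest mean CPM are given in every library, and all others by fold change and adjusted p; of the further repair genes, the 4 lower and 4 higher with the smallest p are named. Coordinates are from GENCODE release M21 on GRCm38, to which 54495 of the identifiers matched and 37 did not. Exon length per gene is the union of its exons there. Promoter windows are from RefSeq (GRCm38.p6) and matched 42 of the 50 genes by symbol.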

Additional observations from a re-analysis of the deposited data

Results flagged for a closer look

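In 2 of the 50 groups of 5 control values, 1 library stood apart by Dixon's criterion, which compares the gap to the nearest library with the whole range (limit 0.71 for 5 libraries, a level that chance passes in about 1 group in 20). Fancl, the ubiquitin ligase of the Fanconi core complex, was lowest in control library 1, at 3.51 CPM against 7.46 to 8.63 CPM in the other controls, a gap of 0.771 of the range. Ercc1, a subunit of the nuclease of nucleotide excision repair, was highest in control library 2, at 24.7 CPM against 13.6 to 16.8 CPM, a gap of 0.713 of the range. Neither gene passed the test between the groups.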

How the results depend on the processing

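The labels do not pair the libraries by replicate number, though the second principal component set the first library of each group apart. Adding this number as a block lowered the calls over all genes from 3862 to 2049 (1098 lower and 951 higher). With this replicate block 5 of the 50 genes were lower and 2 higher. There 0 base excision and 0 Fanconi genes were higher, and 0 Fanconi genes and 1 homologous recombination gene were lower. Of the further repair genes 9 were lower and 3 higher. AML1/ETO 1 correlated best with control 2 (0.0551), not with control 1. limma-voom called 0 base excision and 1 mismatch gene lower. Without the first library of each group, 1 homologous recombination and 0 Fanconi genes were lower. DESeq2 called 2 Fanconi genes and 1 nucleotide excision gene higher, and DESeq2 size factors and a filter of 1 CPM in 3 libraries each called that 1 nucleotide excision gene, Xpa. Leaving out single libraries gave 2 to 7 of the 50 genes higher, 1 to 2 base excision genes lower and 0 to 1 higher, 1 to 3 homologous recombination genes lower, 0 to 1 Fanconi genes lower and 0 to 2 higher, and 0 to 1 nucleotide excision genes higher. The cause was not tested. Library totals in place of TMM factors moved the median over all genes by -0.15 (log2) and gave 18.1% of genes lower and 9.37% higher, against 14.2% and 11.6%.

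Of 798 alternative values for single genes, 702 kept direction and side of the threshold, 24 lost and 11 gained a call, and 61 changed sign. The sign changed only for genes called in neither analysis, and the cause was not tested. In log2 fold change these were Mutyh (limma-voom 0.28, without both first libraries 0.16, single libraries left out -0.29 to 0.13), Nthl1 (0.16, 0.37, -1.12 to 0.04), Polb (without both first libraries 0.39, single libraries -1.07 to 0.11) and Rad52 (0.09, -0.57 to 0.09). Parp2 gave 0.06 with DESeq2 and its size factors, 0.01 without a filter, 0.02 with the 1 CPM filter, 0.22 with the replicate block and -0.17 to 0.15 without single libraries. Pms2 gave 0.06 with DESeq2 and its size factors, 0.02 and 0.03 under those filters, 0.13 with limma-voom, 0.27 without both first libraries and -0.25 to 0.21 without single libraries. Xrcc6 gave 0.02 with DESeq2 and its size factors, 0.07 with limma-voom, 0.00 with the block, 0.03 without both first libraries and -0.14 to 0.09. Palb2 (0.08), Xrcc4 (-0.19) and Nbn (0.00) changed with the block, and without single libraries spanned -0.47 to 0.16, -1.43 to 0.95 and -0.54 to 0.18; Xrcc4 gave -2.13 with limma-voom. Brca2 spanned -0.44 to 0.21 and Rad51c -0.01 to 0.92 without single libraries, and Lig4 spanned -6.65 to 0.48, with 1.38 without both first libraries.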
